A study of Mus musculus with 22 samples.

Results

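Transcripts of 8 genes that govern the uptake of lipoproteins by liver cells and the cleavage of lipoprotein lipids were followed in cultured mouse liver cells: the receptors Vldlr, Lrp1 and Scarb1, the lipases Lpl, Lipc and Lipg, and the lipase inhibitors Angptl4 and Angptl8. They were chosen with earlier results of these data known. They were found by symbol among the 55401 genes of the deposited hepatocyte values and the 55573 genes of the stellate cell values. Each symbol matched a single gene in both. All cells came from wild-type C57BL/6 mice on chow diet, whose age the labels do not give. Primary hepatocytes, grown in Williams Medium E with serum on collagen, received placebo (6 libraries) or 100 uM deferoxamine (DFO, an iron chelator that depletes cells of iron; 6 libraries). Hepatic stellate cells, pericytes of the liver that store vitamin A, were grown in DMEM with serum and received placebo (5 libraries) or 100 uM iron (5 libraries). All cells were plated for 24 h and then treated for 24 h, so that every group, controls included, consisted of cultured cells, and no hepatocyte group received iron and no stellate cell group DFO. Nothing in the labels ties the libraries to separate animals or cultures, so that a p-value here weighs a difference against the spread of these libraries only, and that spread may be technical. The protocol names a small RNA kit and 4 biological replicates a group, whereas 6 or 5 libraries a group are listed.

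Triglyceride-rich lipoproteins leave the blood in steps. Lipoprotein lipase (Lpl), hepatic lipase (Lipc) and endothelial lipase (Lipg) are secreted enzymes that cleave triglycerides and phospholipids at cell surfaces, and the secreted proteins Angptl4 and Angptl8 restrain Lpl. Vldlr and Lrp1 are receptors of the low-density lipoprotein receptor family that take up lipoproteins and lipase-bound remnants, and Scarb1 (SR-BI) takes cholesteryl esters from high-density lipoproteins into the cell. In the intact liver of adult mice Vldlr and Lpl are held low and Lipc is made mainly by hepatocytes. Iron is a cofactor of the prolyl hydroxylases that mark hypoxia-inducible factor (HIF) for degradation, and Vldlr and Angptl4 are known from other systems as genes whose transcripts rise in hypoxia.

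In coordinates of mm10, Vldlr (ENSMUSG00000024924) spans chromosome 19, 27216484 to 27254231, on the plus strand. Lrp1 (ENSMUSG00000040249) lies on chromosome 10, 127538161 to 127621148, on the minus strand, and Scarb1 (ENSMUSG00000037936) on chromosome 5, 125277087 to 125341094, on the minus strand. Lpl (ENSMUSG00000015568) lies on chromosome 8, 68880491 to 68907448, plus strand, Lipc (ENSMUSG00000032207) on chromosome 9, 70798128 to 70952226, minus strand, and Lipg (ENSMUSG00000053846) on chromosome 18, 74939322 to 74961263, minus strand. Angptl4 (ENSMUSG00000002289) lies on chromosome 17, 33773750 to 33781830, minus strand. Angptl8 (ENSMUSG00000047822; chromosome 9, 21835510 to 21837347, plus strand) lies within Dock6, which runs on the opposite strand. Lrp1, Scarb1 and Lipc also overlap other genes, but none of the 8 shared an exonic base with another annotated gene. Their summed exonic lengths differ widely, from 0.865 kb for Angptl8 to 17.717 kb for Lrp1, so levels of different genes are compared below only as FPKM (counts per kilobase of exon, scaled to the total count of the library).

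Promoter sequences of RefSeq (GRCm38.p6), the 250 bases before the transcription start, were at hand for 4 of the 8 genes (not for Angptl4, Lipg, Lpl and Scarb1). They are shown for Vldlr, which of the 8 genes changed most with DFO, and for Lrp1 and Angptl8, which changed the other way. Capitals mark the core of the HIF binding motif, ACGTG or GCGTG, searched on both strands; matches to the spellings may share bases.

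Vldlr promoter (chr19:27216234-27216483, plus strand): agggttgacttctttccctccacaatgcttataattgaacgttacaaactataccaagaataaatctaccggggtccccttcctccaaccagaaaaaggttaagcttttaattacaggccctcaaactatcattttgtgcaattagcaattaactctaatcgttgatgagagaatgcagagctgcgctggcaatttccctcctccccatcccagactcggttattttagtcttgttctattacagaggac

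Lrp1 promoter (chr10:127621149-127621398, minus strand): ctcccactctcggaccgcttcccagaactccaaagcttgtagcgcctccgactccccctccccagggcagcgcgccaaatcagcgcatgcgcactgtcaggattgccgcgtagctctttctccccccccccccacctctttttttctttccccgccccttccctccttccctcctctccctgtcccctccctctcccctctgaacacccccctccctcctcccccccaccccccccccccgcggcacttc

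Angptl8 promoter (chr9:21835260-21835509, plus strand): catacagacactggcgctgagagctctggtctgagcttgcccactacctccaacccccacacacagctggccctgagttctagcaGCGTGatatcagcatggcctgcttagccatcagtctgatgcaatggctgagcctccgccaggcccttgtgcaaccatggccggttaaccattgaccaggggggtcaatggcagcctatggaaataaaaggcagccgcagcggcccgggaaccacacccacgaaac

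The Angptl8 window held 1 core, GCGTG, 165 to 161 bases upstream of the start. The Vldlr and Lrp1 windows, and both windows of Lipc, which has a start site at its annotated 5′ end and another within the gene, held none, and 38.6% of the 32851 promoter windows of the same length held at least 1. Searched in the same way were AGGTCA, a part of the PPAR motif (in 14.0% of windows), and the CCAAT box (in 33.8%, spelled CCAAT). Both were absent from the 3 windows shown. The window of the internal Lipc start held AGGTCA at 88 to 83 and, on the other strand, at 76 to 71 bases upstream. That window also held CCAAT at 177 to 173. The window at the 5′ end of Lipc held 3 CCAAT matches, at 135 to 131, 14 to 10 and 7 to 3 bases upstream, and no AGGTCA. This says only which letters these windows contain. A second, downstream start site of Vldlr, whose window also held CCAAT (78 to 74 bases upstream), overlaps annotated exon sequence and is not shown.

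The libraries held 19342490 to 41839154 counts in hepatocytes and 12058226 to 32067635 in stellate cell cultures. Levels of cell type markers were summed as TMM-normalised counts scaled to the library (CPM). In control hepatocytes 12 hepatocyte markers, mainly Trf and Alb by level, summed to 24725 to 29190, against 18.1 to 28.9 for 12 stellate cell markers. Control stellate cultures showed the reverse, with 8889 to 10604 CPM of stellate markers and 225.0 to 437.3 CPM of hepatocyte markers, so each culture carried the markers of its label. In stellate cultures 3 libraries stood apart. Control 3 had a sum of FPKM of 483000, iron 3 of 424253 and iron 5 of 503333, against 297988 to 333718 in the other 7, and iron 5 held counts for only 12535 genes against at least 18753 in the other 9. Stellate results are therefore given with all 10 libraries and without these 3.

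The first question was how much of each transcript untreated cells held. In control hepatocytes Angptl4 was the most abundant of the 8 genes, with 66.5 ± 3.80 FPKM (mean ± SD, n = 6), followed by Lrp1 (45.6 ± 2.64), Angptl8 (26.5 ± 3.07) and Scarb1 (10.8 ± 0.525). Lipc (5.87 ± 0.374) and Lpl (5.00 ± 0.575) came next and overlapped between libraries, whereas all other neighbours in the order were apart. Vldlr stood at 1.27 ± 0.0776 FPKM. Lipg was close to the limit of detection at 0.0633 ± 0.0383 FPKM, from 58 counts over the 6 libraries.

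Control stellate cultures held a different set. Lrp1 (median 103.23 FPKM, mean 142 ± 94.5, n = 5), Angptl4 (92.5 ± 22.2) and Lpl (57.3 ± 3.29) were at the top. Angptl4 overlapped with both Lrp1 and Lpl, which were apart from each other. Without control 3, which had 310.95 FPKM of Lrp1, Angptl4 (102.4 ± 2.76) and Lrp1 (100.0 ± 6.12, n = 4) overlapped and both lay above Lpl (56.0 ± 1.93). Scarb1 (24.2 ± 2.19), Vldlr (3.84 ± 0.475), Angptl8 (1.14 ± 0.186), Lipg (0.796 ± 0.0984) and Lipc (0.134 ± 0.0873) followed in that order without overlap between neighbours.

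Set side by side, the lipases divided between the cultures. Lpl made up 98.4% ± 0.226 of the summed FPKM of the 3 lipases in control stellate cultures and 45.7% ± 3.94 in control hepatocytes. On the log2 scale, control hepatocytes over control stellate cultures, Lpl stood at -3.52 and Lipg at -3.65, whereas Lipc stood at 5.45 and Angptl8 at 4.54. Lrp1 (-1.64), Vldlr (-1.60) and Scarb1 (-1.17) were lower in hepatocytes, and Angptl4 (-0.48) differed least. The stellate side of these ratios is the mean of all 5 controls. Without control 3 the stellate mean of Lrp1 was 100.0 instead of 142.2 FPKM, so its ratio is smaller in size without that library. The order of the receptors by ratio therefore depends on control 3. The 2 cell types were grown in different media and their values were deposited as separate tables, so these ratios were not tested. The small amount of Lipc in stellate cultures, 36 counts over 5 control libraries, came beside the hepatocyte markers given above, and their part in it was not tested.

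**Figure D1:**
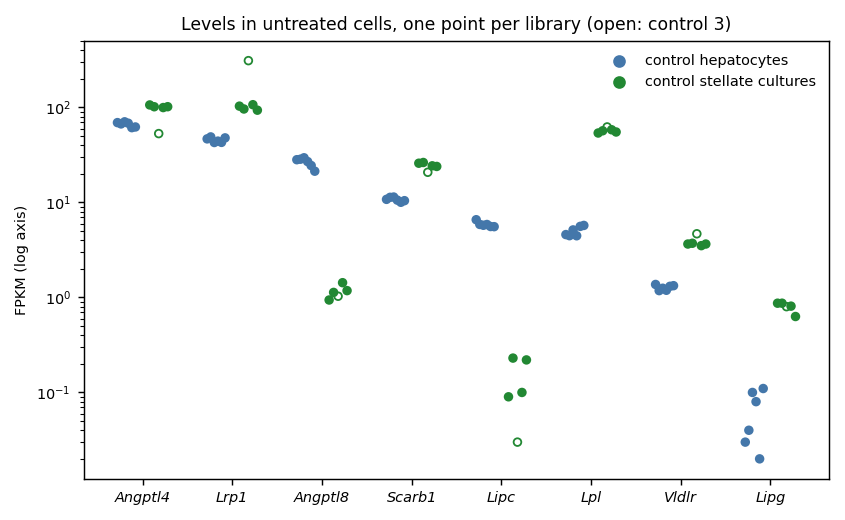
FPKM of the 8 genes (log axis) in each control library, hepatocytes in blue and stellate cultures in green, with genes ordered by their level in hepatocytes. Lipc and Angptl8 lie higher in all hepatocyte libraries and Lpl and Lipg higher in all stellate libraries, and the open circle is control 3, at 310.95 FPKM for Lrp1.

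The next comparison asked how the 8 transcripts respond when iron is withdrawn from hepatocytes. Vldlr rose 6.36-fold, the lipases Lpl and Lipc rose 1.54-fold and 1.39-fold, and Lipg rose from its low level. The inhibitor Angptl4 fell 1.93-fold, Lrp1 fell 1.64-fold, and Angptl8 and Scarb1 fell by less. All 8 thus passed the threshold (edgeR quasi-likelihood test over 15660 genes, Benjamini-Hochberg adjusted p under 0.05), 4 upward and 4 downward. The background was high: 58.0% of all tested genes passed, 27.9% upward and 30.1% downward, and the median log2 change over all genes was -0.00121. The groups did not overlap for 4 of the 8 genes (Vldlr, Lrp1, Lpl and Angptl4), against 35.9% of all genes.

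**Figure D2:**
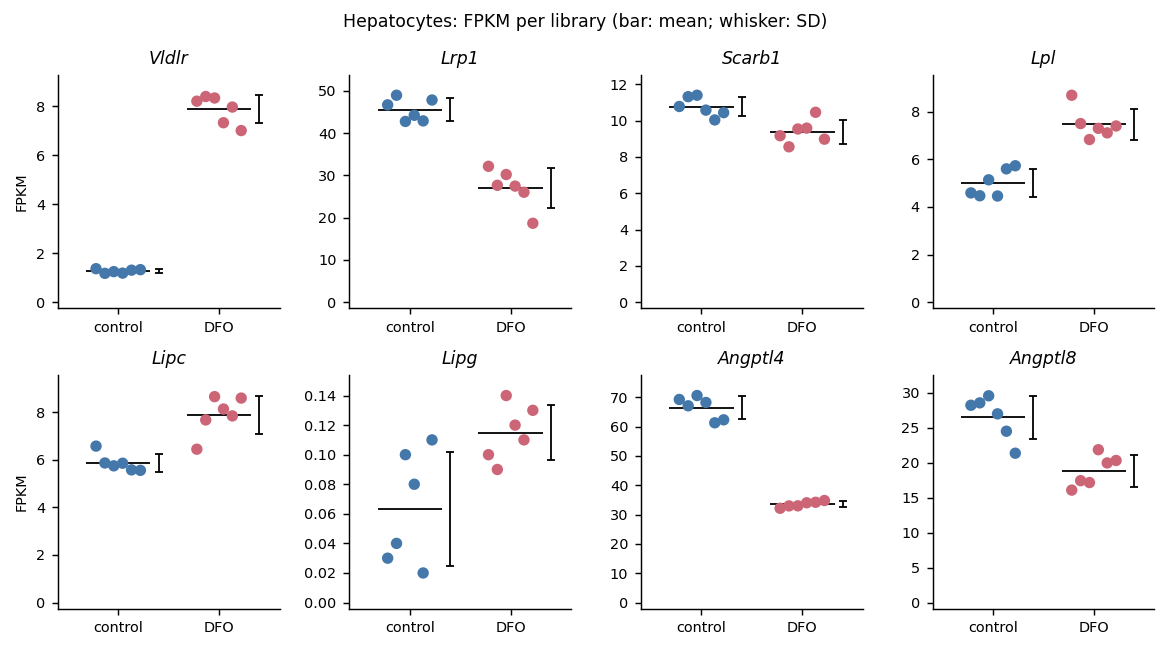
FPKM per hepatocyte library for each of the 8 genes, control in blue and DFO in red, with the mean (bar) and SD (whisker) of 6 libraries. The groups are fully separated for Vldlr, Lrp1, Lpl and Angptl4 and overlap for Scarb1, Lipc, Lipg and Angptl8.

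Among the receptors, Vldlr went from a lowest, median and highest value of 1.18, 1.28 and 1.37 FPKM in control libraries to 7.01, 8.09 and 8.40 FPKM with DFO. The lowest DFO library was thus well above the highest control, and the libraries within each group lay close together. The log2 change was 2.67 ± 0.06 (SE; edgeR adjusted p = 1.03e-15), which placed Vldlr at rank 65 from the highest of 15660 genes; 4.62% of all genes passed the threshold with a rise of more than 2-fold. Lrp1, the large endocytic receptor for remnants and many protease complexes, had a lowest, median and highest value of 42.8, 45.5 and 49.0 FPKM in controls and of 18.7, 27.6 and 32.2 FPKM with DFO. The groups were apart, and DFO 6 lay well under the other 5 DFO libraries. The fitted change of Lrp1 was -0.72 ± 0.09 (edgeR adjusted p = 4.41e-06).

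Scarb1 moved least. Its lowest, median and highest values were 10.0, 10.7 and 11.4 FPKM in controls and 8.56, 9.36 and 10.5 FPKM with DFO, so that the groups overlapped. The log2 change of -0.16 ± 0.06 (edgeR adjusted p = 0.0234) lost its call without control 2 (adjusted p = 0.0569), without control 3 (0.0511) or without DFO 2 (0.0604). Through these changes the summed FPKM of the 3 receptors went from 57.6 ± 2.80 to 44.3 ± 5.19, while the share of Vldlr in that sum went from 2.21% ± 0.173 to 17.9% ± 1.43 and that of Lrp1 from 79.1% ± 1.04 to 60.7% ± 3.91 (n = 6 each; a description, with no test).

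Among the lipases, Lpl had a lowest, median and highest value of 4.46, 4.87 and 5.73 FPKM in controls and of 6.83, 7.35 and 8.69 FPKM with DFO. All DFO libraries exceeded all controls, and the highest of them was DFO 1. This was a log2 change of 0.62 ± 0.07 (edgeR adjusted p = 6.97e-07). Lipc rose by 0.47 ± 0.08 (edgeR adjusted p = 4.37e-05), from 5.56, 5.81 and 6.58 to 6.45, 7.995 and 8.66 FPKM (lowest, median and highest). The overlap came from single libraries on each side, control 1 as the highest control and DFO 1 as the lowest treated library. The level of Lipg, an enzyme that prefers phospholipids of high-density lipoproteins, went from 0.02 to 0.11 FPKM in controls to 0.09 to 0.14 FPKM with DFO. The log2 change of 0.95 ± 0.31 (edgeR adjusted p = 0.0144) rests on 58 and 117 counts in all, and the level of Lipg stayed below that of the other lipases in each library.

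Of the inhibitors, Angptl4 had the tightest separation. Its lowest, median and highest values were 61.3, 67.7 and 70.6 FPKM in controls and 32.2, 33.5 and 34.8 FPKM with DFO. The change was -0.95 ± 0.05 on the log2 scale (edgeR adjusted p = 6.99e-11). Angptl8, a hepatocyte transcript induced by feeding, went from 21.3, 27.6 and 29.5 to 16.1, 18.7 and 21.8 FPKM, a log2 change of -0.45 ± 0.09 (edgeR adjusted p = 0.000549). The groups of Angptl8 overlapped in 1 control, control 6, which lay below the highest DFO library. The ratio of Lpl to Angptl4 FPKM was 0.0757 ± 0.0126 in controls and 0.223 ± 0.0241 with DFO, and the summed FPKM of the 3 lipases was 10.9 ± 0.437 and 15.5 ± 0.380. With DFO, Vldlr thus came to lie among Scarb1, Lipc and Lpl. In the order Scarb1, Lipc, Vldlr and Lpl, each gene overlapped with the next. At the top, Lrp1 overlapped with both Angptl4 and Angptl8, which were apart from each other.

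Other cells and library makeup moved with the treatment. Of 13 tested macrophage markers 10 were higher and 1 lower with DFO, with a summed level of 305.2 to 340.8 CPM in controls and 351.8 to 457.6 CPM with DFO. Of 13 endothelial markers 3 were higher and none lower (83.6 to 96.9 and 89.4 to 110.2 CPM). The 12 hepatocyte markers summed to 29633 to 34894 CPM with DFO, with 4 members higher and 5 lower. The largest part of that sum was Trf (transferrin), with a mean of 15248.7 CPM in controls and 18541.5 CPM with DFO. The 6 cholangiocyte markers summed to 2144 to 2620 CPM in controls and 1907 to 2118 CPM with DFO. Most of that was Spp1 (mean 2190.5 and 1749.4 CPM). Of 4 tested cholangiocyte markers 1, Sox9, was higher (1.34 ± 0.07, edgeR adjusted p = 5.59e-11) and 2 were lower. The 6 adipocyte markers summed to 4.88 to 5.80 CPM in controls and 6.18 to 9.68 CPM with DFO, without overlap. Of the 2 tested Fabp4, named after its values were seen, was higher (1.43 ± 0.15, edgeR adjusted p = 2.43e-07). Its mean was 1.63 CPM in controls and 4.38 CPM with DFO. The other, Cidec, did not pass and had a lower mean with DFO (3.56 and 3.14 CPM, -0.18 ± 0.12, edgeR adjusted p = 0.198). Of 6 tested stellate markers 3 were higher and 1 lower, with sums of 18.1 to 28.9 CPM in controls and 12.1 to 30.4 CPM with DFO (medians 22.7 and 13.8). Of all markers in these lists only Hhip, a stellate marker, was at 0 in all libraries of a group, the controls. The part of these shifts in the changes of the 8 genes, Lpl among them, was not tested, and in such cultures fewer cells of a type and less RNA per cell cannot be told apart.

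Across the 12 hepatocyte libraries, the transcripts whose log2 CPM followed Vldlr most closely, of 7278 ranked genes, were Ero1l, an oxidase of the endoplasmic reticulum (Pearson r = 0.998), Kdm3a, a histone demethylase (0.998), and Pdk1, a kinase that inhibits pyruvate dehydrogenase (0.998). Narf (0.997) and the phosphofructokinase Pfkp (0.997) came next. Their log2 changes with DFO were 2.20 for Ero1l, 2.24 for Kdm3a, 3.45 for Pdk1, 1.86 for Narf and 2.92 for Pfkp. These correlations share the libraries and the difference between the 2 groups, and describe likeness over these libraries alone.

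The other genes of lipoprotein handling in hepatocytes, in 4 lists, are to be read against the 58.0% of all tested genes that passed (27.9% upward, 30.1% downward). Of 20 tested receptors and adaptors outside the 8 genes, 6 rose and 5 fell (median log2 change 0.11). The fatty acid and lipoprotein receptor Cd36 fell from 20.98 ± 1.36 to 12.4 ± 1.68 FPKM (-0.72 ± 0.08), and the lipolysis-stimulated receptor Lsr fell by 0.44 ± 0.05 on the log2 scale. The endothelial scavenger receptor Stab2, also one of the endothelial markers, rose by 1.36 ± 0.11 but reached only 0.757 ± 0.0745 FPKM.

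Of 16 lipases, cofactors and processing factors, 7 rose and 4 fell (median 0.21). Apoa5, an apolipoprotein that promotes lipolysis by Lpl, rose from 9.88 ± 1.23 to 17.1 ± 2.69 FPKM (0.84 ± 0.10). Angptl6, a relative of Angptl4 and Angptl8, rose (0.62 ± 0.10), whereas these 2 fell, and Lipa, the lysosomal acid lipase, fell by 0.37 ± 0.04 on the log2 scale.

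Heparan sulphate proteoglycans hold lipases and remnants at the cell surface. Of 16 tested genes for them and their synthesis, 5 rose and 5 fell (median -0.11). The core protein Hspg2 (perlecan) had a log2 change of -1.57 ± 0.12, whereas Sdc4 (syndecan 4) rose from 73.2 ± 2.90 to 109.0 ± 7.23 FPKM (0.61 ± 0.05). Hs6st1, a sulphotransferase of the chains, rose by 0.37 ± 0.05, and Sulf2, which removes sulphate groups from them, had a change of -0.37 ± 0.05.

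Of 15 transcription factors and cofactors of lipoprotein genes, 5 rose and 6 fell (median 0.01). Hnf4a, which maintains hepatocyte gene expression, had a log2 change of -0.92 ± 0.05, and the liver X receptor Nr1h3 one of -0.69 ± 0.07. Epas1, which encodes HIF-2 alpha, rose from 9.34 ± 0.432 to 15.2 ± 1.69 FPKM (0.74 ± 0.06). All genes named from these 4 lists passed the same threshold (edgeR adjusted p between 7.34e-11 for Hnf4a and 5.96e-05 for Angptl6).

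**Figure D3:**
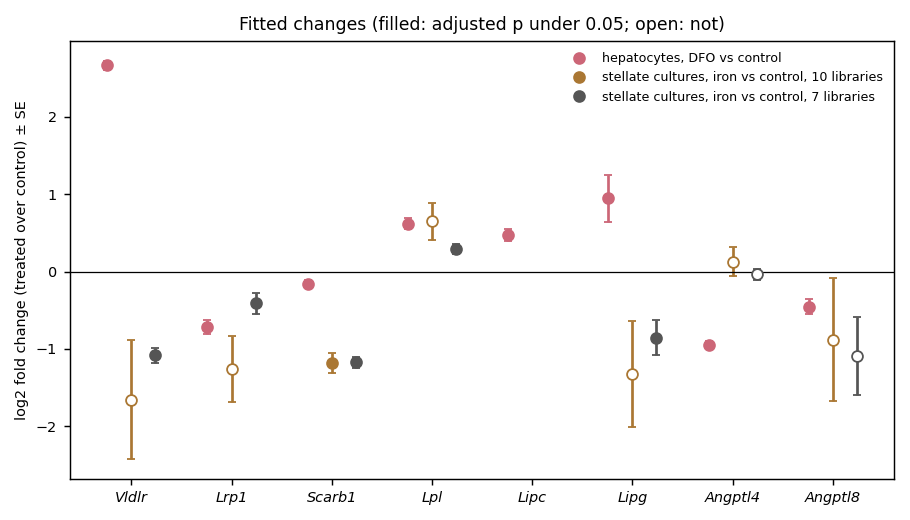
Fitted log2 fold change ± SE of each of the 8 genes (treated over control) in hepatocytes with DFO and in stellate cultures with iron, the latter from 10 and from 7 libraries; filled symbols passed the threshold. Vldlr lies at 2.67 in hepatocytes and below 0 in stellate cultures, Scarb1 passed in all 3 fits, and Lipc has no stellate symbol because its counts were too low to test.

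The second comparison asked what iron does to the same transcripts in stellate cultures. Scarb1 fell 2.27-fold with iron and was the single gene of the 7 tested that passed the threshold over all 10 libraries, where 7.42% of 15502 tested genes passed (4.05% upward, 3.37% downward). Without control 3, iron 3 and iron 5, 5 of the 7 passed: Scarb1, Vldlr, Lipg and Lrp1 downward and Lpl upward. In that fit 38.1% of 16287 tested genes passed (18.3% upward, 19.8% downward), so the background rose as well. Both fits share the same 7 libraries and are not independent of each other. The groups did not overlap, by CPM, for 4 of the 7 genes with 10 libraries (21.9% of all genes) and for 6 of 7 with 7 libraries (43.8%). The median log2 change over all genes was -0.06 and 0.0064.

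**Figure D4:**
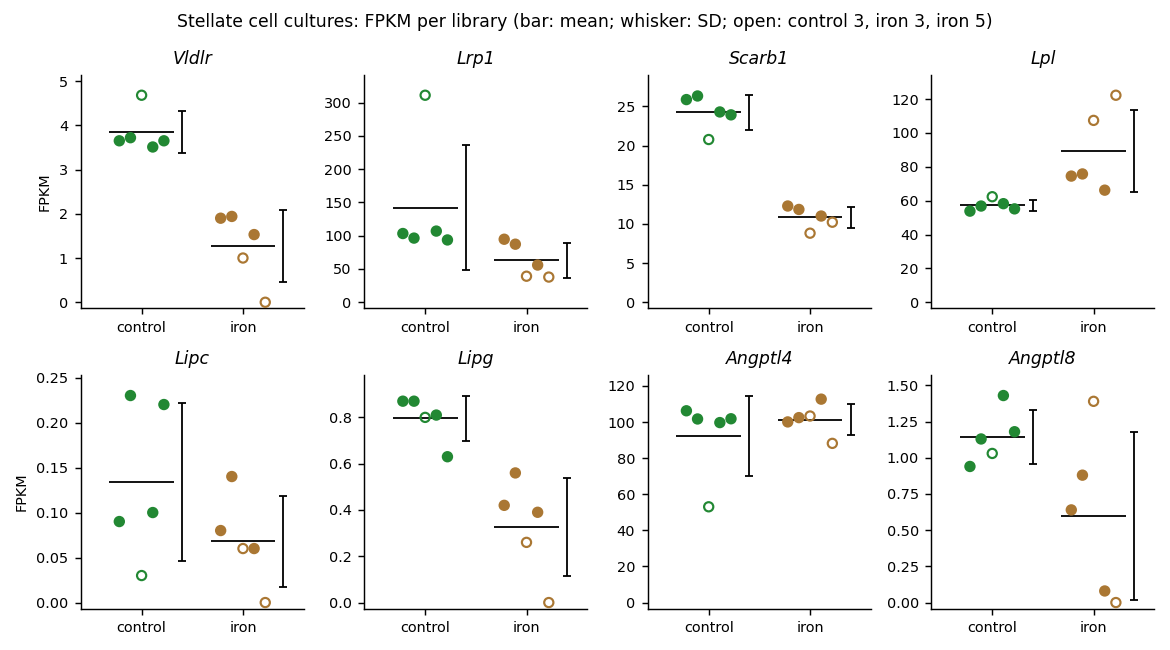
FPKM per stellate culture library for each of the 8 genes, control in green and iron in brown, with the mean (bar) and SD (whisker) of 5 libraries; open circles are control 3, iron 3 and iron 5. Scarb1 and Vldlr are separated between the groups in all libraries, whereas Lpl is highest and Vldlr lowest in the open iron circles.

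Scarb1 was at 25.88, 26.34, 20.78, 24.30 and 23.93 FPKM in control libraries 1 to 5 and at 12.29, 11.85, 8.82, 11.01 and 10.22 FPKM in iron libraries 1 to 5. The highest iron library lay below the lowest control by a wide margin, and the 3 libraries that stood apart did not differ in this from their groups. The log2 change was -1.18 ± 0.13 (edgeR adjusted p = 0.000487) with 10 libraries and -1.17 ± 0.07 (adjusted p = 6.24e-08) with 7. It kept its call under each alternative run.

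Vldlr was at 3.65, 3.72, 4.68, 3.51 and 3.65 FPKM in control libraries and at 1.9, 1.94, 1.00, 1.53 and 0.00 FPKM in iron libraries. Every iron library lay below every control, but iron 5 held no count of Vldlr at all, where 3 counts would have given 0.0247 FPKM. With 10 libraries the log2 change was -1.66 ± 0.77 and did not pass (edgeR adjusted p = 0.186). Without iron 5 alone it was -1.34 (adjusted p = 0.00135), and with the 7 libraries it was -1.08 ± 0.09 (adjusted p = 1.43e-06), from 3.63 ± 0.0881 (n = 4) to 1.79 ± 0.226 FPKM (n = 3). The direction in iron-treated stellate cultures was thus opposite to that in DFO-treated hepatocytes; no test sets the 2 against each other, since cell type and agent differ together.

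Lrp1 was at 103.23, 96.36, 310.95, 106.90 and 93.59 FPKM in control libraries and at 94.65, 87.20, 39.12, 55.90 and 37.83 FPKM in iron libraries. Iron 1 lay within the range of the controls by FPKM, control 3 was far above all others, and iron 3 and 5 were lowest. The log2 change was -1.26 ± 0.43 with 10 libraries (edgeR adjusted p = 0.0969) and -0.41 ± 0.13 with 7 (adjusted p = 0.0276). The latter call was lost without control 1, 2 or 4 (adjusted p = 0.0808, 0.0636 and 0.0900), and without iron 4 the change was -0.20.

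The level of Lrp1, the longest of the 8 transcripts, moved with a feature of the libraries. The mean exonic length of the gene behind a count was 7.23 kb in control 3 against 5.62 to 5.69 kb in the other controls, and 5.61, 5.57, 4.27, 5.16 and 4.02 kb in iron libraries 1 to 5. Libraries ranked by this length and by Lrp1 thus had the same highest member and the same 3 lowest. With this length as an added term, an alternative chosen after the data were seen, the change of Lrp1 was -0.19 ± 0.19 with 10 libraries (edgeR adjusted p = 0.831) and -0.13 ± 0.06 with 7 (adjusted p = 0.0684). Scarb1 stayed at -1.18 ± 0.10 and -1.13 in the same fits. All iron libraries lay below all controls in this length, so the added term overlaps with the treatment. These fits therefore cannot tell an effect of length from one of iron.

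In hepatocytes the length behind a count was 5.04 to 5.30 kb in controls and 4.73 to 5.36 kb with DFO, lowest in DFO 6, which also had the least Lrp1. There the added term left the change of Lrp1 at -0.66 ± 0.05 (edgeR adjusted p = 2.56e-10) and all 8 calls in place.

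**Figure D5:**
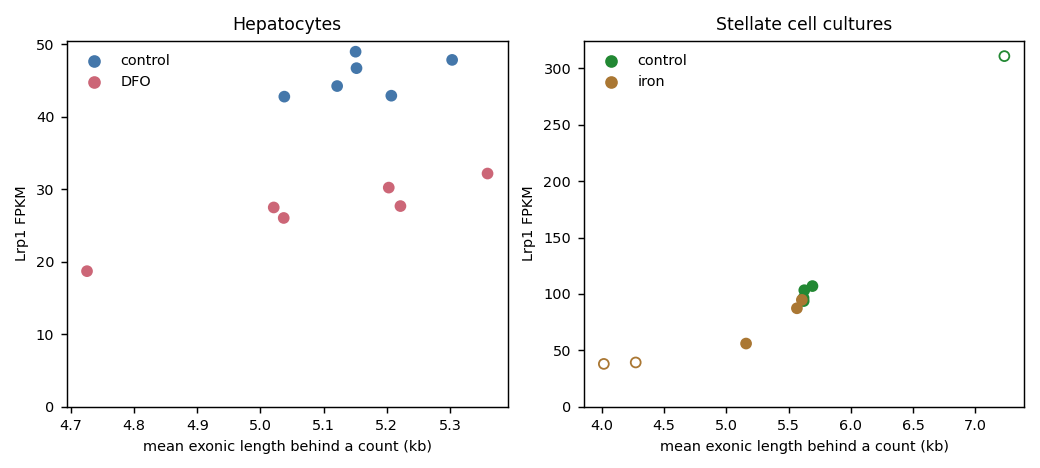
FPKM of Lrp1 in each library against the mean exonic length (kb) of the genes behind its counts, hepatocytes on the left and stellate cultures on the right; open circles are control 3, iron 3 and iron 5. In hepatocytes Lrp1 is lower in all DFO libraries, of which DFO 2 and 3 lie within the range of lengths of the controls, DFO 1 above it and DFO 4, 5 and 6 below it, whereas in stellate cultures the points run from 4.02 kb and 37.83 FPKM to 7.23 kb and 310.95 FPKM.

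Lpl was at 53.82, 56.83, 62.34, 58.23 and 55.16 FPKM in control libraries and at 74.52, 75.79, 107.42, 66.21 and 122.28 FPKM in iron libraries. All iron libraries exceeded all controls by FPKM, and iron 3 and 5 were the highest. The log2 change was 0.65 ± 0.24 with 10 libraries (edgeR adjusted p = 0.118) and 0.29 ± 0.07 with 7 (adjusted p = 0.00321), where the mean went from 56.0 ± 1.93 to 72.2 ± 5.20 FPKM. Lpl remained the main lipase transcript, with 99.2% ± 0.141 of lipase FPKM in iron libraries 1, 2 and 4.

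Lipg was at 0.87, 0.87, 0.80, 0.81 and 0.63 FPKM in control libraries and at 0.42, 0.56, 0.26, 0.39 and 0 FPKM in iron libraries, with no count in iron 5, where 3 counts would have given 0.0528 FPKM. The groups were apart. Its fitted log2 change came to -1.32 ± 0.69 with 10 libraries (edgeR adjusted p = 0.234), -1.02 without iron 5 (adjusted p = 0.0232) and -0.86 ± 0.23 with 7 (adjusted p = 0.00957). Lipc, with 36 counts in the control and 18 in the iron libraries, did not pass the filter on low counts and was not tested.

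The inhibitor transcripts gave no call. Angptl4 was at 106.26, 101.72, 53.06, 99.72 and 101.84 FPKM in control libraries and at 100.09, 102.47, 103.36, 112.71 and 88.20 FPKM in iron libraries. Control 3 was lowest, and the groups overlapped. Fitted log2 changes were 0.13 ± 0.18 with 10 libraries (edgeR adjusted p = 0.667) and -0.03 ± 0.07 with 7 (adjusted p = 0.741), so its sign was not settled. Angptl8 was at 0.94, 1.13, 1.03, 1.43 and 1.18 FPKM in control libraries and at 0.64, 0.88, 1.39, 0.08 and 0 FPKM in iron libraries, from at most 35 counts a library. Iron 4 held 1 count and iron 5 none, where 3 counts would have given 0.237 and 0.288 FPKM. Its change did not pass with 10 libraries (-0.88 ± 0.80, edgeR adjusted p = 0.492) or with 7 (-1.09 ± 0.50, adjusted p = 0.108).

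Markers of other cells differed between the stellate groups. Summed macrophage and Kupffer cell markers stood at 204.0 to 282.2 CPM in controls and 2234 to 3497 CPM with iron, with 12 of 13 tested members higher. Endothelial markers stood at 101.1 to 185.5 and 273.4 to 568.1 CPM (6 of 13 higher). Cholangiocyte markers stood at 111.0 to 164.2 and 227.3 to 822.3 CPM (2 of 4 tested higher). Most of that was Spp1, with a mean of 129.1 CPM in controls and 611.7 CPM with iron. With 7 libraries 2 of 5 tested cholangiocyte markers were higher and 1, Sox9, was lower (-0.71 ± 0.17, edgeR adjusted p = 0.00481). Stellate markers stood at 8889 to 10604 and 6866 to 9482 CPM. Of 12 tested members 4 were lower with 10 libraries and 10 with 7, and none was called higher. With 10 libraries most of the sum was Col1a1 (mean 3492.8 CPM in controls and 2117.7 CPM with iron) and Acta2 (3017.1 and 4822.7 CPM), neither called. The 4 called lower were Dcn (1714.3 and 398.7 CPM), Pdgfrb (473.65 and 249.5), Reln (415.3 and 71.2) and Lrat (23.0 and 2.78). With 7 libraries all 13 tested macrophage and all 13 endothelial markers were higher. No macrophage, endothelial or stellate marker was at 0 in all libraries of a group. Hepatocyte markers stood at 225.0 to 437.3 and 183.5 to 454.4 CPM with 10 libraries, with 1 of 12 lower, and at 353.1 to 455.6 and 191.3 to 245.1 CPM with 7, where all 12 were lower. Adipocyte markers, of interest because fat cells make much Lpl, stood at 28.7 to 85.6 and 48.4 to 151.5 CPM with Lep at 0 in both groups. Iron 3 (139.7 CPM) and iron 5 (151.5 CPM), also the highest in Lpl, gave the upper end, and with 7 libraries the adipocyte sums overlapped, at 43.0 to 89.0 and 50.4 to 67.5 CPM. The part of these shifts in the changes of Scarb1, Vldlr, Lrp1, Lipg and Lpl was not tested.

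Across the 10 stellate libraries the transcripts that followed Scarb1 most closely, of 7627 ranked genes, were Insig1, which holds sterol regulatory element binding proteins in the endoplasmic reticulum (Pearson r = 0.993), the chemokine-scavenging receptor Ackr3 (0.990) and the matricellular protein Ccn5 (0.989). The growth factor Vegfd (0.988) and Myoc (0.985) came next. Insig1 had a log2 change of -1.31, from 24.2 to 9.83 FPKM, and the others changed by -3.61 (Ackr3), -3.93 (Ccn5), -2.36 (Vegfd) and -8.21 (Myoc). As in hepatocytes, these correlations share the libraries and the group difference.

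Of 20 tested receptors and adaptors outside the 8 genes, 4 rose and 1 fell with iron over 10 libraries (median log2 change -0.22) and 7 rose and 8 fell over 7 (median -0.01). For this and the next 3 lists, 7.42% of all genes passed over 10 libraries and 38.1% over 7. The scavenger receptors Marco (7.19 ± 0.65, edgeR adjusted p = 0.000139) and Msr1 (2.70 ± 0.37, adjusted p = 0.00153), both made by macrophages, rose, as did Stab2 (2.97 ± 0.46, adjusted p = 0.00297). Stab1, another endothelial scavenger receptor, rose as well (1.46 ± 0.34, adjusted p = 0.0247, and 2.02 ± 0.15, adjusted p = 4.29e-07, with 7 libraries). Marco is also in the macrophage and Stab1 and Stab2 in the endothelial marker list. Scarb2, the lysosomal relative of Scarb1, fell from 92.3 ± 6.45 to 58.6 ± 3.70 FPKM (-0.67 ± 0.13, adjusted p = 0.0113).

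Of 15 tested lipases, cofactors and processing factors, 1 rose and 3 fell over 10 libraries (median -0.29), and 3 rose and 5 fell over 7 (median -0.37). Gpihbp1, the endothelial anchor of Lpl, rose from 0.156 ± 0.105 to 1.19 ± 0.178 FPKM (2.89 ± 0.65, edgeR adjusted p = 0.0220). The proprotein convertase Pcsk5 (-1.69 ± 0.28, adjusted p = 0.00409), Angptl2 (-1.35 ± 0.24, adjusted p = 0.00591) and Sel1l, which helps Lpl leave the endoplasmic reticulum (-0.997 ± 0.23, adjusted p = 0.0274), fell.

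Of 17 heparan sulphate genes, 1 rose and 2 fell over 10 libraries (median -0.32), and 5 rose and 5 fell over 7 (median -0.01). The glypican Gpc4 fell from 102.6 ± 5.50 to 41.7 ± 4.54 FPKM (-1.32 ± 0.15, edgeR adjusted p = 0.000450), and Ndst1, which sulphates the chains, fell by 0.9998 ± 0.25 on the log2 scale (adjusted p = 0.0358). The remnant-binding syndecan Sdc1 rose (0.99 ± 0.18, adjusted p = 0.00714), and Sdc4 did not pass (0.97 ± 0.28, adjusted p = 0.0589). With 7 libraries Sulf1 (-0.60 ± 0.06) fell and Hs6st1 (0.61 ± 0.07) rose.

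Of 15 transcription factors and cofactors, none rose and 2 fell over 10 libraries (median -0.63). Srebf2, which drives sterol synthesis genes, had a log2 change of -0.93 ± 0.17 (edgeR adjusted p = 0.00890) and Epas1 one of -1.38 ± 0.29 (adjusted p = 0.0165), while Ppard (-0.63 ± 0.18, adjusted p = 0.0611) and Nr1h3 (1.07 ± 0.34, adjusted p = 0.0802) did not pass. Over 7 libraries 3 rose and 11 fell (median -0.50), among them Pparg upward (1.38 ± 0.12, adjusted p = 1.49e-06) and Hif1a downward (-0.82 ± 0.11, adjusted p = 4.93e-05). Epas1, which had risen in hepatocytes with DFO, was at 29.9 ± 6.41 FPKM in control and 11.9 ± 4.63 FPKM in iron-treated stellate cultures.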

How the data were processed

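The deposited values are whole-number counts per gene and library, and FPKM values computed by the authors: every FPKM over 1 equalled, to within 1%, the count divided by exonic kilobases and by the library total in units of 1e+06. The submitters' processing notes name cutadapt 1.9.1, HISAT2 2.0.1 and mm10. How reads were counted, with which annotation and whether by strand, is not given in the sources used here. Reads of Angptl8 and of Dock6 on the opposite strand are therefore told apart only by their exons. Each cell type was fitted alone, over all genes, with edgeR 4.0.16 (R 4.3.3) on the deposited counts: TMM normalisation, filterByExpr, quasi-likelihood test, two-sided, Benjamini-Hochberg adjusted p under 0.05 as the threshold. Standard errors are those the F value implies. The same steps were run on simulated counts, in which each gene had the same dispersion in every library. No simulated library was made to stand apart as some stellate libraries did, so that run could not test the fits in this respect.

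The 8 genes, the pathway and marker lists and the left-out libraries were chosen with earlier results of these data known. From each pathway list up to 4 genes of smallest p in each comparison could be named, though a few of these are left unnamed and only counted; the 5 genes most like a called gene were ranked by Pearson r of log2 CPM (prior count 2) among genes with a mean of at least 5 FPKM in the higher group, without predicted genes. Within each group all pairs of libraries differed by more than sampling noise (smallest chi-square per degree of freedom 3.23 in hepatocytes, 5.28 in stellate cultures). Alternatives were RLE size factors, DESeq2 1.42.0, no filter, limma 3.58.1 on log2 FPKM with pseudocounts of 1 and 0.1 for genes reaching 0.5 FPKM, limma voom with quality weights, a replicate block, leaving out each library, and, added after the data were seen, each library's mean exonic length as a term. Counts limit precision for Lipg, Lipc and Angptl8, and values at 0 of tested genes are given with the FPKM that 3 counts would make; this covers counting error only.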

Additional observations from a re-analysis of the deposited data

Results flagged for a closer look

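Of 32 groups of 4 to 6 libraries examined (8 genes in 4 groups), 5 held a library far from the rest, by the gap to its nearest neighbour over the group's range; chance gives about 1 in 20. Control stellate library 3 gave 3 of them, with 4.68 FPKM of Vldlr and 310.95 FPKM of Lrp1, both the highest of their group, and 53.06 FPKM of Angptl4, the lowest. In hepatocytes DFO 1 had the highest Lpl of its group, 8.69 FPKM, and control 1 the highest Lipc, 6.58 FPKM. Both hepatocyte genes kept their calls without these libraries, and their log2 changes ranged from 0.58 to 0.66 for Lpl and from 0.44 to 0.53 for Lipc over all leave-one-out fits.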

How the results depend on the processing

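In hepatocytes 7 of the 8 calls held under every alternative that could test the gene (Lipg fell below the FPKM filter of the limma fits); Scarb1 lost its call in 3 leave-one-out fits and with a replicate block (adjusted p = 0.0706). In the 7 stellate libraries the calls of Vldlr, Scarb1, Lpl and Lipg held in every fit, Lrp1 lost its call with limma on log2(FPKM + 1) and log2(FPKM + 0.1) (adjusted p = 0.102 and 0.104), in 3 leave-one-out fits and with the length term, and Angptl8 passed with log2(FPKM + 1) (adjusted p = 0.0449). There limma on log2(FPKM + 1) called 3366 genes higher and 2353 lower, against 2988 and 3224 in edgeR. Counts over all 10 stellate libraries depended most on the method: 1151 genes and 1 of the 8 with edgeR, 2895 and 2 with DESeq2 (Lrp1 added), 2 of the 8 with limma on log2(FPKM + 1) (Vldlr added), 6319 and 6 with quality weights (all tested but Angptl4), 6212 and 5 without the 3 libraries that stood apart, and 605 to 2462 genes and 1 to 3 of the 8 when 1 library was left out, the most without iron 5. Leaving out control 1, 2, 4 or 5 or iron 4 gave 605, 619, 638, 685 and 686 genes. The sign of Angptl4 in stellate cultures, never called, turned with quality weights (-0.0616), the length term (-0.122) and the 7 libraries (-0.0336), and from the 7 libraries with log2(FPKM + 1) and log2(FPKM + 0.1) (0.0358 and 0.0361); leave-one-out values ran from -0.00216 to 0.181 and from -0.0817 to 0.0225. The cause of these differences was not tested. Equal replicate numbers did not pair the libraries: deviations of same-numbered libraries correlated at -0.245 to -0.00274 in hepatocytes and -0.320 to 0.120 in stellate cultures. With a replicate block 175 genes and 1 of the 8 passed over 10 stellate libraries, 5139 genes and 5 over 7, and 8235 genes and 7 in hepatocytes. Over 10 stellate libraries the block moved the median of all genes to -0.15 and log2(FPKM + 0.1) to -0.12. Depth limits Lipg in hepatocytes and Lipc and Angptl8 in stellate cultures.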
